A study of Canis lupus familiaris with 6 samples.

Results

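The small heat shock proteins of muscle were followed through 7 genes, HSPB1, HSPB2, HSPB3, HSPB6, HSPB7, HSPB8 and CRYAB, in left ventricular RNA of 6 dogs hybridised to Affymetrix canine arrays, 1 array per dog. Every probe set whose array annotation holds exactly 1 of these symbols was used. This gave 14 of the 42924 probe sets that are not array controls, with 3 probe sets for HSPB7 and HSPB8, 2 for HSPB1, HSPB2 and HSPB3, and 1 for HSPB6 and CRYAB. A gene's probe sets are called the first, the second and so on, from top to bottom in the plot of values by array. The affected group held 3 Great Danes whose tissue the labels call DCM (dilated cardiomyopathy), a female of 9 years (affected 1) and males of 7 years (affected 2 and affected 3). The control group held a male Labrador retriever of 12 years (control 1), a female St. Bernard of 10 years (control 2) and a male Greater Swiss Mountain dog of 4 years (control 3). No control was a Great Dane and no affected dog was of another breed, so breed and disease cannot be told apart. The labels give neither a genetic lesion nor a treatment for any dog.

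Small heat shock proteins are chaperones that need no ATP. They share an alpha-crystallin domain, form oligomers, and hold unfolding proteins until the ATP-driven chaperones HSP70 and HSP90 refold them or the cell degrades them. Striated muscle carries a large set of them, which bind desmin, actin, filamin C and titin at Z-discs and other points of mechanical strain, and faults in several of them cause myopathy, neuropathy or cardiomyopathy in humans.

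All values are on the log2 scale, and each is an array's difference from the median of that probe set across all 6 dogs. They carry no expression level, so the 7 genes could not be ordered by abundance, and the labelled tissue could not be checked by the abundance of heart markers. Some arrays stood apart from the rest. Spiked hybridization transcripts, added in fixed amounts before hybridization, had median values of 0.28 on affected 1 and 0.53 on affected 3, against -0.12 on affected 2 and between -0.04 and 0.01 on the controls. Spiked poly-A transcripts, added in fixed amounts to the RNA before labelling, stood at 0.58 on affected 1 and 2.38 on affected 3, and between -0.19 and -0.01 on the other 4 arrays. The beta-actin 3' minus 5' difference, which is higher where RNA is more degraded, was 0.31 and 0.58 on those same arrays, -0.18 on affected 2, 0.08 and 0.11 on control 1 and control 2, and -0.34 on control 3. The GAPDH 3' minus 5' difference ran between -0.14 and 0.15, with 0.02 on affected 1 and -0.03 on affected 3. Control 3 had 1683 probe sets below -1, where the other arrays had 161 to 510. Tags that match no dog transcript were slightly lower on every affected array, at -0.01 to -0.03, than on the controls, at 0.01 to 0.11.

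Affected ventricles were compared with control ventricles to find which transcripts of the family differed with the disease. All 14 member probe sets had a higher mean in affected hearts, with differences from 0.02 to 1.24 and a median over the 7 genes of 0.61. The median over all 15115 named genes was -0.07, and 33% of all probe sets lay above 0, or 51.4% of the 25754 that remained after the 40% with the smallest range over the arrays were left out. All 14 member probe sets were among those 25754. After Benjamini-Hochberg adjustment over all 42924 probe sets in limma, 0 member probe sets passed the threshold of 0.05 (lowest adjusted p = 0.296), where 0.00233% of all probe sets, which is 1, did. At an unadjusted p under 0.05, 6 of 14 member probe sets were higher and 0 were lower, where 4.53% of all probe sets were higher and 6.32% lower. These 6 are both probe sets of HSPB2, both of HSPB3, 1 of the 3 of HSPB7 and that of CRYAB. In a fit of the 25754 probe sets kept by the filter on range, 5 of 14 were higher and 0 lower at that p. Of the 25754, 1757 (6.82%) were higher and 771 lower, and their median difference was 0.02. Member probe sets higher at an unadjusted p under 0.05 numbered 10 without control 1 and 4 without control 2. In those fits 4.12% and 7.22% of all probe sets were higher. Affected 2 alone was also set against the controls, through a term for affected 1 and affected 3. That setting rests on 1 affected dog whose spread was not measured, so its differences are given without a count. The share of all probe sets higher or lower at that p depended on the scaling, with 1945 higher and 2713 lower as reported, and 2385 higher and 1097 lower once each array was centred on its median. Groups did not overlap in 5 member probe sets, all of them higher in affected hearts, where 5.37% of all probe sets, and 8.74% after the filter on range, were higher without overlap and 46.9% of all were lower without overlap. Taking each gene as the mean of its probe sets, 7 of 7 genes were above 0, where 35% of named genes were, and 2 of 7, HSPB2 and HSPB3, did not overlap, where 5.8% of named genes were higher without overlap. At an unadjusted p under 0.05 in limma 3 of 7 genes, HSPB2, HSPB3 and CRYAB, were higher and 0 lower. Of named genes, 4.88% were higher and 5.64% lower at that p. The gene value of HSPB7 had a limma unadjusted p of 0.0964.

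**Figure D1:**
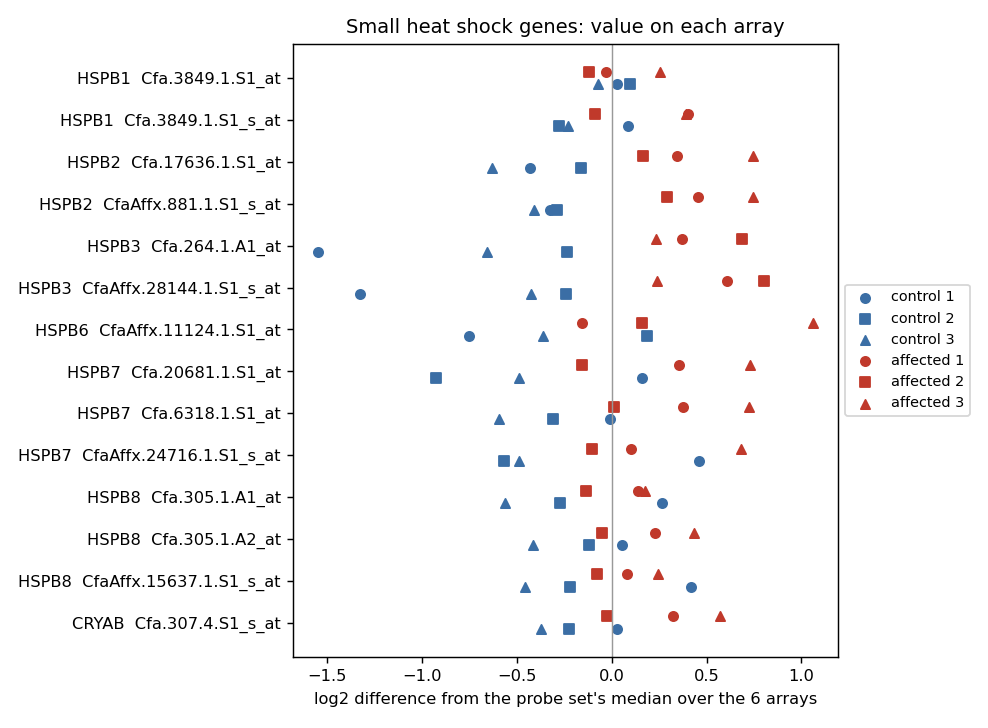
Values of the 14 member probe sets on the 6 arrays, as log2 differences from each probe set's median, with affected dogs in red and control dogs in blue and 1 symbol shape per replicate number. Both probe sets of HSPB2 and both of HSPB3 show all affected values above all control values, and 9 of the 14 probe sets are highest on affected 3.

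HSPB3 showed the largest difference of the family. Its probe sets are assigned by the symbol in the array annotation, whose gene ID for HSPB3 is not the ID of HSPB3 in the RefSeq gene list, while the IDs of the other 6 genes match, and no sequence was used to check the assignment. HSPB3 is a short member expressed mainly in muscle, which assembles with HSPB2 into a hetero-oligomer, and mutations in it have been linked to motor neuropathy in humans. In the first probe set its values were 0.37, 0.69 and 0.23 on affected 1, affected 2 and affected 3, and -1.55, -0.23 and -0.66 on control 1, control 2 and control 3. In the second they were 0.61, 0.80 and 0.24 on the affected arrays and -1.33, -0.24 and -0.43 on the controls. Both probe sets placed affected 2 highest, affected 3 lowest among the affected dogs, and control 1 far below every other array, and in neither did the groups overlap. The affected mean was 0.43 ± 0.23 (SD, n = 3) and the control mean -0.81 ± 0.67 (SD, n = 3) in the first probe set, a difference of 1.24 (SE 0.36, 95% interval 0.31 to 2.17, limma unadjusted p = 0.0182, adjusted p = 0.296). The second probe set gave 1.21 (SE 0.33, 95% interval 0.37 to 2.06, limma unadjusted p = 0.0140, adjusted p = 0.296). These correspond to 2.37-fold and 2.32-fold. Without control 1 the differences were 0.88 in both probe sets, and without control 2 they were 1.53 and 1.42.

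Affected 2, whose spiked transcripts lay below 0, held the highest HSPB3 value, and affected 3, whose spiked transcripts were highest, held the lowest of the affected arrays. The part of the arrays that stood apart in this difference was not tested. Over both probe sets affected 2 stood 1.48 above the control mean, against 1.23 for affected 1 and 0.97 for affected 3. Without affected 2 the limma unadjusted p was 0.0561 for the first probe set and 0.0452 for the second. By sex, the female affected dog was 0.72 above the female control, and the mean of the 2 affected males was 1.48 above that of the 2 control males.

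HSPB2, also known as the myotonic dystrophy kinase binding protein, had the smallest p of the family. Its second probe set stood at 0.46, 0.29 and 0.74 on affected 1, affected 2 and affected 3, and at -0.33, -0.29 and -0.41 on the 3 controls. The control values lay within a narrow band, and the lowest affected value was 0.58 above the highest control. The means were 0.50 ± 0.23 (SD, n = 3) and -0.34 ± 0.06 (SD, n = 3), and the difference was 0.84 (SE 0.13, 95% interval 0.51 to 1.16, limma unadjusted p = 0.00109, adjusted p = 0.296). The first probe set read 0.34, 0.16 and 0.75 on the affected arrays and -0.43, -0.16 and -0.63 on the controls, a difference of 0.83 (SE 0.20, 95% interval 0.32 to 1.33, limma unadjusted p = 0.00809, adjusted p = 0.296). The groups did not overlap there either, with a gap of 0.33. HSPB2 was thus 1.78-fold higher over both probe sets, whose values differed by at most 0.22 on any array.

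With any 1 array left out, the HSPB2 differences stayed between 0.66 and 0.95, and the lowest values came without affected 3. Affected 3 and affected 1, where the spiked transcripts were high, held the highest and second highest HSPB2 values. Affected 2, where the spiked transcripts were not high, alone stood 0.57 and 0.63 above the control mean in the 2 probe sets. Those values rest on 1 dog, and the part of the arrays that stood apart in the HSPB2 difference was not tested. The female affected dog was 0.63 above the female control, and the affected males were 0.94 above the control males on average.

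**Figure D2:**
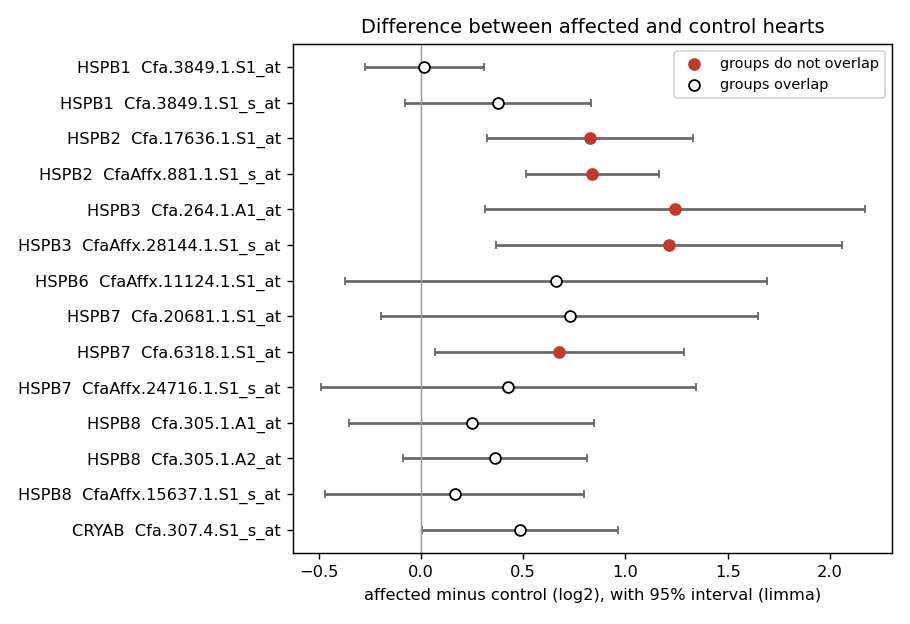
Affected minus control difference of each member probe set on the log2 scale, with its 95% interval from limma (n = 3 dogs per group). Filled points mark the 5 probe sets whose groups do not overlap, and only the intervals of HSPB2, HSPB3, 1 probe set of HSPB7 and CRYAB lie above 0.

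CRYAB encodes alpha-B crystallin, a chaperone of desmin whose mutations cause desmin-related myopathy. In the RefSeq gene list of the dog assembly UU_Cfam_GSD_1.0, HSPB2 and CRYAB are next to each other, with no protein-coding gene between them. The CRYAB probe set read 0.32, -0.03 and 0.57 on affected 1, affected 2 and affected 3, and 0.03, -0.23 and -0.37 on control 1, control 2 and control 3. Affected 2 lay just below control 1, so the groups overlapped. The means were 0.29 ± 0.30 (SD, n = 3) and -0.19 ± 0.20 (SD, n = 3), with a difference of 0.48 (SE 0.19, 95% interval 0.0034 to 0.96, limma unadjusted p = 0.0489, adjusted p = 0.296), or 1.40-fold. It was 0.34 without affected 3 (limma unadjusted p = 0.121), 0.39 without control 3 (limma unadjusted p = 0.143), 0.64 without affected 2 (limma unadjusted p = 0.0138) and 0.17 for affected 2 alone against the controls. The limma unadjusted p was also above 0.05 without affected 1 (0.112) and without control 2 (0.119). At the same difference of 0.48, the limma unadjusted p was 0.0808 with sex as a term, 0.0643 after the filter on range and 0.0527 with a robust prior. The affected arrays fell in the same order as the spiked hybridization transcripts, affected 3 above affected 1 above affected 2, and the part of those arrays in the CRYAB difference was not tested further.

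The neighbouring genes were then set against each other within each array. HSPB2 minus CRYAB was 0.08, 0.25 and 0.17 on affected 1, affected 2 and affected 3, and -0.40, 0.0018 and -0.15 on control 1, control 2 and control 3. All affected values lay above all control values. The means of 0.17 ± 0.09 and -0.18 ± 0.21 (SD, n = 3 each) differed by 0.35, with a two-sided exact permutation p = 0.1, which is the smallest that 3 against 3 arrays can give. The other neighbours on either side, C5H11orf52 beside HSPB2 and C5H11orf1 beside CRYAB, differed between groups by -0.09 and -0.21.

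HSPB7, the cardiovascular small heat shock protein, is a partner of filamin C and is needed for the assembly of heart muscle thin filaments. Its 3 probe sets differed by 0.73 (SE 0.36), 0.68 (SE 0.24) and 0.43 (SE 0.36). In the second the arrays read 0.37, 0.01 and 0.73 for affected 1, affected 2 and affected 3, and -0.01, -0.31 and -0.60 for the controls. The groups did not overlap in this probe set, by a margin of 0.02 between affected 2 and control 1 (95% interval 0.07 to 1.28, limma unadjusted p = 0.0355, adjusted p = 0.296). The other probe sets overlapped, with control 1 at 0.16 and 0.46, above affected 2 at -0.16 and -0.10. As the mean of its probe sets, HSPB7 stood at 0.28, -0.08 and 0.71 on the affected arrays and at 0.20, -0.60 and -0.53 on the controls. Control 2 and control 3 were thus low and control 1 was within the affected range. Without affected 3 the differences were 0.52, 0.50 and 0.20, and for affected 2 alone they were 0.26, 0.32 and 0.10. Without control 1 they were 1.02, 0.82 and 0.76, with limma unadjusted p of 0.0301, 0.0272 and 0.0419. For the second probe set the limma unadjusted p was 0.0808 without affected 1, 0.0863 without affected 3, 0.0888 without control 2, 0.107 without control 3 and 0.0623 with sex as a term, and 0.0161 without affected 2.

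HSPB6, known as HSP20, is phosphorylated by the cyclic nucleotide-dependent kinases and takes part in smooth muscle relaxation as well as in the heart's response to adrenergic drive. Its probe set read -0.16, 0.16 and 1.06 on affected 1, affected 2 and affected 3, and -0.75, 0.19 and -0.36 on control 1, control 2 and control 3. Affected 3 stood far above every other array, and control 2 lay above affected 1 and affected 2. The difference was 0.66 (SE 0.40, 95% interval -0.37 to 1.69, limma unadjusted p = 0.161, adjusted p = 0.304), and 0.31 without affected 3. The female affected dog was 0.35 below the female control in this gene (-0.35), while the affected males averaged 1.17 above the control males. The difference between these contrasts was not tested, since each female group is 1 dog.

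HSPB8, known as HSP22, works with the co-chaperone BAG3 in the autophagic removal of damaged filamin. Its 3 probe sets differed by 0.25 (SE 0.23), 0.36 (SE 0.18) and 0.17 (SE 0.25), with limma unadjusted p of 0.337, 0.0932 and 0.534. As their mean, HSPB8 stood at 0.15, -0.09 and 0.28 on the affected arrays and at 0.25, -0.20 and -0.48 on the controls. Control 1 was above affected 1 and affected 2, and control 3 was the lowest array. Single control arrays moved these values. Without control 3 the probe sets differed by 0.062, 0.24 and -0.020, and without control 1 by 0.48, 0.47 and 0.42, with limma unadjusted p of 0.0317, 0.0624 and 0.0353. Without affected 2 the second differed by 0.49 (limma unadjusted p = 0.0418).

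HSPB1, known as HSP27, caps and protects actin filaments and is the best known substrate of the kinase MAPKAPK2. Its 2 probe sets carry the same RefSeq transcript in the annotation, but differed from each other by as much as 0.43, on affected 1. The first read -0.03, -0.12 and 0.25 on affected arrays and 0.03, 0.10 and -0.07 on controls, a difference of 0.018 (SE 0.11, 95% interval -0.27 to 0.31, limma unadjusted p = 0.883) that turned to -0.091 without affected 3, -0.028 without control 3 and -0.019 after quantile normalization. The second read 0.40, -0.09 and 0.39 on affected arrays and 0.09, -0.28 and -0.23 on controls, a difference of 0.38 (SE 0.18, 95% interval -0.08 to 0.83, limma unadjusted p = 0.0865). Both intervals include 0, and their upper bounds allow 1.24-fold and 1.78-fold. For affected 2 alone the second probe set differed by 0.05.

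Across the family the arrays did not stand alike. By gene, 7 of 7 genes were above 0 on affected 3, 6 of 7 on affected 1 and 3 of 7 on affected 2, which are HSPB2, HSPB3 and HSPB6. Among controls the counts were 4 of 7 on control 1, 1 of 7 on control 2 and 0 of 7 on control 3. The family's median value was 0.28, -0.03 and 0.57 on the affected arrays and 0.03, -0.23 and -0.48 on the controls, so that affected 2 lay below control 1. Affected 3 was the highest array in 9 of 14 probe sets, where it was highest in 10.9% of all probe sets and in 16.8% of those kept by the filter on range. Control 3 was the lowest in 7 of 14, against 18.1% and 28.9%. For affected 2 alone against the controls, the family's median difference was 0.23.

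**Figure D3:**
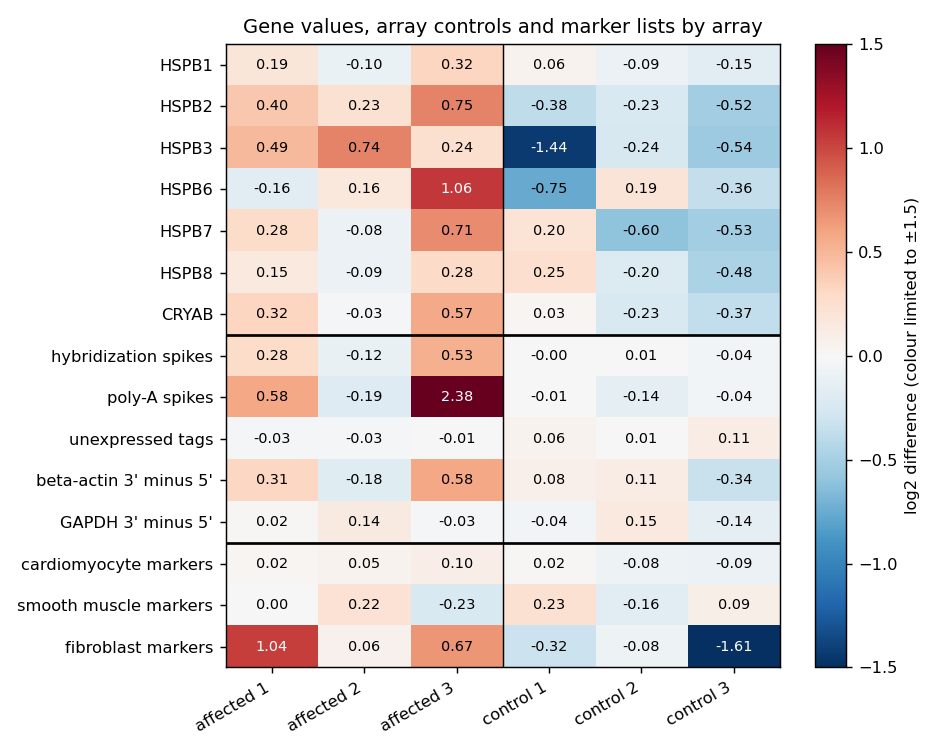
Log2 values on the 6 arrays for the 7 genes (top), for array controls as medians or 3' minus 5' differences (middle) and for the medians of 3 marker lists (bottom). HSPB1, HSPB2, HSPB7, HSPB8 and CRYAB have the order affected 3, affected 1, affected 2 that the spiked transcripts have, while HSPB3 is highest on affected 2.

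The marker lists bear on which cells the RNA came from, although in bulk tissue fewer cells of a type and less RNA per cell cannot be told apart. Cardiomyocyte markers, 10 of 12 measured, had medians of 0.02, 0.05 and 0.10 on the affected arrays and 0.02, -0.08 and -0.09 on the controls, with a median difference of 0.15 and 0 genes at an unadjusted p under 0.05 in limma. Smooth muscle markers, 7 of 7 measured, stood at 0.0049, 0.22 and -0.23 on the affected arrays and at 0.23, -0.16 and 0.09 on the controls. Their median difference was 0.09, with 4 genes above 0 and 3 below. Of these LMOD1 was lower at -0.41 (limma unadjusted p = 0.0438). HSPB6 and HSPB1 are also expressed in smooth muscle, and the part of smooth muscle in their values was not tested. Fibroblast markers, 8 of 8 measured, stood at 1.04, 0.06 and 0.67 on the affected arrays and -0.32, -0.08 and -1.61 on the controls. They were thus high on affected 1 and affected 3 and low on control 3, as were HSPB1, HSPB2, HSPB7, HSPB8 and CRYAB in part. The part of these markers in those results was not tested. Their median difference was 1.44, with 5 of 8 genes higher and 0 lower at an unadjusted p under 0.05 in limma and 6 of 8 higher without overlap. Of all named genes, 4.88% were higher at that p and 5.8% were higher without overlap. The other 2 fibroblast genes, PDGFRA and TCF21, differed by -0.69 and -0.18, with overlap. The median differences of the remaining marker lists were -0.10 for skeletal muscle (10 of 11 measured) and -0.28 for endothelium. They were 0.0043 for atrial or conduction myocytes (3 of 5 measured), 0.72 for macrophages and 0.61 for adipocytes. Among atrial markers MYL7 differed by 1.41, without overlap (limma unadjusted p = 0.0155), and MYL4 by -0.22. Among endothelial markers VWF differed by 0.89, without overlap (limma unadjusted p = 0.0157), and PECAM1 by -0.82 (limma unadjusted p = 0.0481). Macrophage markers stood at 2.30, -0.11 and -0.01 on the affected arrays and at 1.48, -0.42 and -0.50 on the controls. Adipocyte markers stood at 1.495, -0.02 and -0.12 on the affected arrays and at 0.07, -0.06 and 0.12 on the controls. In both lists affected 1 alone of the affected arrays was high, and 0 genes had an unadjusted p under 0.05 in limma. Skeletal muscle markers went both ways, with CASQ1 at 3.57 (SE 1.30, limma unadjusted p = 0.0385) and TNNT1 at 0.66 (SE 0.20, limma unadjusted p = 0.0210) higher without overlap and 1 gene, MYH1, lower at an unadjusted p under 0.05 (-0.22). In all, 5 of the 10 were lower without overlap, where 41.7% of all named genes were. CASQ1 read 0.15, 0.41 and 1.34 on the affected arrays and -0.15, -5.04 and -3.62 on the controls, and TNNT1 read -0.02, 0.53 and 0.38 against -0.61, -0.06 and -0.43. TNNT1 and HSPB3 were both highest on affected 2 and lowest on control 1, while CASQ1 was highest on affected 3 and lowest on control 2. Of the 10 skeletal muscle genes 3 were above 0 and 7 below, where 35% of all named genes were above 0. The part of skeletal muscle genes in the HSPB3 difference was not tested. The single genes named from the marker lists were chosen after their values were seen.

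Genes that work with the small heat shock proteins were read from 5 lists, with each gene as the mean of its probe sets and limma run over 15115 named genes. In these, 0 genes passed the adjusted threshold, as did 0% of all named genes, while 4.88% of named genes were higher and 5.64% lower at an unadjusted p under 0.05 in limma. Of 10 cytoskeletal and sarcomeric partners, 2 were higher and 0 lower at that p, and the list median was 0.24. DMPK, the myotonic dystrophy protein kinase that HSPB2 binds, differed most, with 1.02, 0.25 and 1.69 on the affected arrays and -0.63, -0.25 and -0.75 on the controls. Its groups did not overlap in either of its probe sets, which differed by 1.68 and 1.38. The gene value differed by 1.53 (SE 0.39, limma unadjusted p = 0.00970, adjusted p = 0.322). As the mean of its probe sets DMPK, like HSPB2, was highest on affected 3 and lowest on control 3, but 1 of its probe sets was lowest on control 1 (-0.49). Of the probe sets kept by the filter on range, 16.8% were highest on affected 3 and 28.9% lowest on control 3. The affected arrays fell in the order of the spiked transcripts, and the part of those arrays in the DMPK difference was not tested. ACTC1, the cardiac actin, differed by 0.25 (SE 0.09, limma unadjusted p = 0.0368), and DES, the intermediate filament desmin that CRYAB chaperones, by 0.62 (SE 0.26, limma unadjusted p = 0.0631). The 2 ACTC1 probe sets differed by 0.13, with overlap, and by 0.36, without overlap.

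Of 10 genes of chaperone-assisted selective autophagy, the route that HSPB8 and BAG3 serve, 2 were higher and 0 lower at an unadjusted p under 0.05, with a median of 0.22. These were VPS16, a vacuolar sorting subunit, at 0.40 (SE 0.13, limma unadjusted p = 0.0227) and STUB1, the ubiquitin ligase CHIP, at 0.21 (SE 0.08, limma unadjusted p = 0.0386). LAMP2, the lysosomal membrane protein, followed at 0.49 (SE 0.23). The VPS16 and STUB1 values are means over 3 probe sets each, which ranged from -0.05 to 0.93 and from 0.02 to 0.34. HSPB8's own partner BAG3 read 0.24, -0.27 and 0.76 on the affected arrays and 0.01, -0.36 and -0.01 on the controls, again highest on affected 3.

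Of 8 kinases that phosphorylate small heat shock proteins or act upstream of them, 4 were above 0 and 4 below, with a median of -0.03. At an unadjusted p under 0.05 in limma 1 was higher and 0 lower. It was MAPKAPK3, which phosphorylates HSPB1, at 0.17, 0.10 and 0.11 on the affected arrays against -0.13, -0.26 and -0.10 on the controls, a difference of 0.29 (SE 0.06, limma unadjusted p = 0.00421, adjusted p = 0.322). Its relative MAPKAPK2 differed by 0.27 (SE 0.21), with affected 2 at -0.20, and PRKG1, a cyclic GMP-dependent kinase that acts on HSPB6, by -0.37 (SE 0.29). Of the 16 measured heat shock factors and stress-induced chaperones 0 were higher and 0 lower at an unadjusted p under 0.05 in limma, and the median was 0.11. HSP90AA1, AHSA1 and SERPINH1 had the smallest p in this list, with differences of 0.27, 0.29 and 0.44, and the heat shock factor HSF1 differed by 0.01. The AHSA1 value is a mean over 3 probe sets, which ranged from 0.02 to 0.67. The heat shock response itself was therefore measured in part, since HSPA1A and HSPA1B have no probe set named here.

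The 3 remaining small heat shock genes on the array, ODF1 and HSPB9, known from testis, and CRYAA, the lens alpha-A crystallin, differed by -0.38, -0.13 and -0.06. They were lower on every affected array than on any control, as were 41.7% of all named genes, and they shared their array pattern with the tags that match no dog transcript, with the highest value on control 3 and the second highest on control 1.

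**Figure D4:**
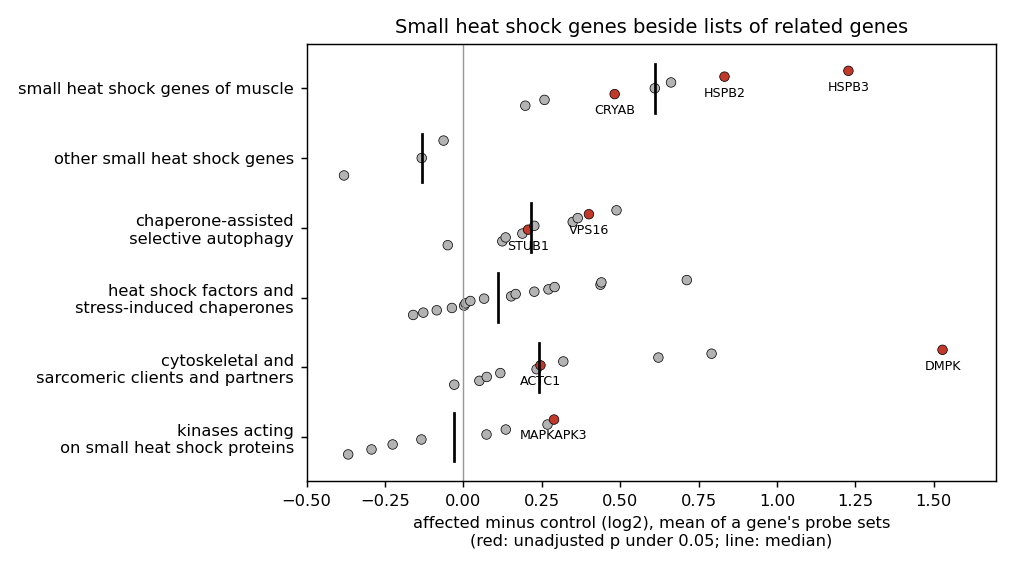
Affected minus control difference of each gene, on the log2 scale as the mean of its probe sets, for the 7 small heat shock genes of muscle and 5 lists of related genes. Named red points have an unadjusted p under 0.05 in limma, and the black lines mark the list medians, which are 0.61 for the family, -0.13 for the other small heat shock genes and between -0.03 and 0.24 for the others.

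Among 14399 named genes, likeness to a member was taken as the root mean square difference over the 6 arrays. The nearest to HSPB3 were FKBP7, a prolyl isomerase of the endoplasmic reticulum, at 0.17, RTN2, a reticulon, at 0.17 and MGST2, a microsomal glutathione transferase, at 0.25. FKBP7 read 0.59, 0.77 and 0.27 on the affected arrays and -1.13, -0.27 and -0.80 on the controls. The nearest to HSPB2 were DHX30, OLFML2B and EGF, at 0.09, 0.10 and 0.10, and the nearest to CRYAB were SEC24C, ASCC1 and HSPBP1, at 0.06, 0.07 and 0.08. HSPBP1, a co-chaperone of HSP70, read 0.39, 0.02 and 0.44 on the affected arrays and -0.04, -0.15 and -0.41 on the controls. Within the family, the member nearest to CRYAB was HSPB1, at 0.16, with 144 other named genes nearer. CRYAB was the member nearest to HSPB2, at 0.22, with 92 nearer. HSPB2 was the member nearest to HSPB3, at 0.52, with 224 nearer. HSPB3 thus lay farther from its nearest relative in the family than HSPB2 did.

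**Figure D5:**
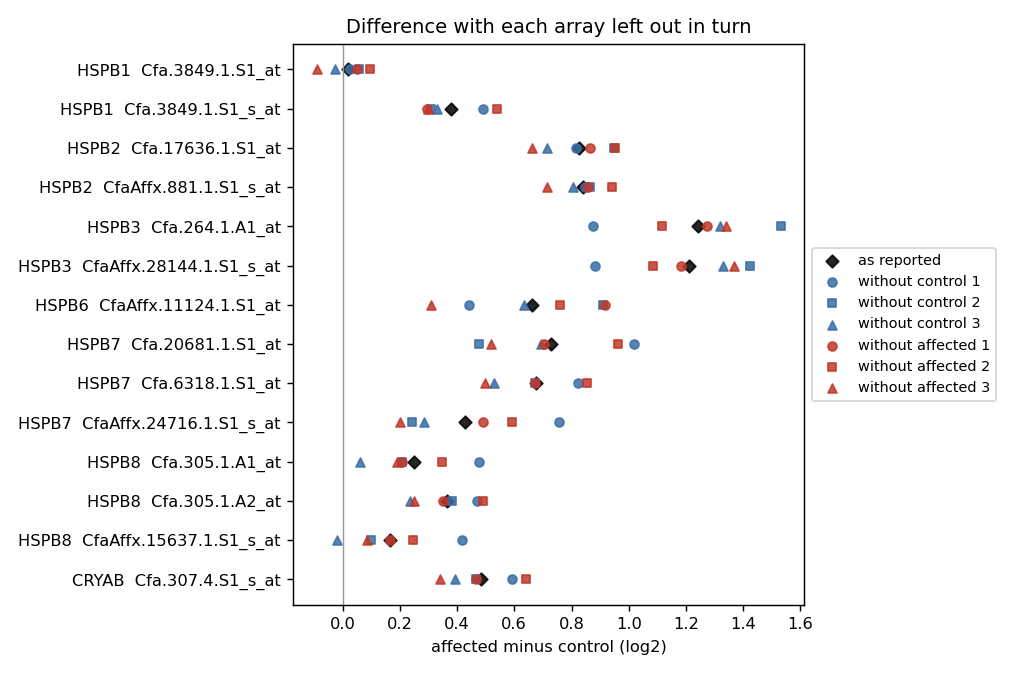
Affected minus control difference of each member probe set as reported (black) and with each of the 6 arrays left out in turn, on the log2 scale. HSPB3 moves most with control 1 and control 2, HSPB6 with affected 3, and 1 probe set each of HSPB1 and HSPB8 crosses 0.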

How the data were processed

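Left ventricular RNA of 6 dogs was labelled with biotin by the standard Affymetrix protocol, per the labels. The authors deposited 1 value per probe set and array. GCRMA and MAS5 appear in the submitters' processing notes, which state neither their order nor their versions, and a genome build is not given in the sources used here. The deposited values were taken as log2, from their range (-8.35 to 10.7). The median of each probe set across the arrays was 0 (largest absolute median 5e-07), so the step that centred them removed the level.

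The 111 array controls were left out. A limma 3.58.1 fit (R 4.3.3, two-sided, with group alone as a term, 4 residual and 1.13 prior degrees of freedom) covered 42924 probe sets without a filter, and p-values were adjusted over all of them by Benjamini-Hochberg. Of these, 29254 had 1 symbol, 439 several and 13231 none in the array annotation. The same fit was run on gene values, each the mean of a gene's probe sets. The fit was also run on simulated arrays with independent normal noise and no shifts between arrays. It therefore does not bear on the arrays that stood apart here. The number of arrays limits precision. Each array is a biological replicate per the labels and was taken as 1 dog.

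Named are all members, up to 3 genes with the smallest p from each list of related genes, and the 3 nearest genes to HSPB3, HSPB2 and CRYAB. BAG3, HSF1 and the neighbouring genes were added for their roles or position after their values were seen. Single genes of the marker lists were also named after their values were seen. The members and lists were chosen with earlier results of these data known. Sequences of the members are not used here.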

Additional observations from a re-analysis of the deposited data

How the results depend on the processing

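The 14 member differences were recomputed under up to 15 alternatives. Of the recomputed values 5 changed sign, 4 in the first probe set of HSPB1 and 1 in the third of HSPB8. As reported these 2 probe sets differed by 0.018 and 0.17. The first probe set of HSPB1 turned to -0.019 after quantile normalization and -0.14 for affected 2 alone, and with single arrays left out it ran from -0.091 (without affected 3) to 0.094, with -0.028 without control 3. The third of HSPB8 ran from -0.020 (without control 3) to 0.42. No member passed the adjusted threshold in limma under any alternative run (lowest adjusted p = 0.125, without control 2). Of all probe sets, 1 passed as reported, 6 without the 40% with the smallest range and 91 at a range of at least 1. After quantile normalization, with age as a term and with the replicate block 0 passed. Single arrays left out gave 0 to 5. Member probe sets higher at an unadjusted p under 0.05 numbered 6 as reported, 5 with the replicate block, and 4 to 10 with single arrays left out. The shares of all probe sets were 4.53%, 5.11%, and 2.56% to 7.22% in these settings. At a range of at least 1 they numbered 2 of 8, where 8.69% of the probe sets kept were higher. The median difference of the probe sets kept there was 0.31. At a range of at least 1 those 2 were the HSPB3 probe sets, and the HSPB2 ones had a limma unadjusted p of 0.0728 and 0.0810. The family's median difference was 0.23 for affected 2 alone and 0.34 to 0.76 with single arrays left out. The shared replicate numbers are not known to pair dogs. Deviations of same-numbered arrays correlated at 0.27, 0.15 and 0.022 over probe sets, and every array but control 3 correlated best with its own number.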
